A study of Homo sapiens with 12 samples.

Results

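The pyruvate dehydrogenase kinases PDK1, PDK2, PDK3 and PDK4, the phosphatases PDP1 and PDP2 and the catalytic subunits PDHA1 and PDHB were followed in 2 human breast cancer lines treated with dexamethasone. These 8 genes were chosen by symbol from the 51838 genes of the deposited count table. Each symbol matched 1 row, and all 8 were among the 28141 genes with enough reads to test. HCC70 and MDA-MB-231, both labelled basal-like, received 100 nM dexamethasone (DEX), a synthetic glucocorticoid, or the same volume of ethanol (vehicle) for 4 h. The 4 groups of 3 libraries were HCC70 DEX, HCC70 vehicle, MDA-MB-231 DEX and MDA-MB-231 vehicle, 12 libraries in all. The submitters give as their question which genes the glucocorticoid receptor and STAT3 regulate. The medium was RPMI for HCC70 and DMEM for MDA-MB-231, both with added serum and sodium pyruvate, and effects of line and of medium cannot be told apart. Whether the 3 libraries of a group stem from separate cultures is not given. The p-values therefore measure the spread between these libraries, which may be technical.

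The pyruvate dehydrogenase complex sits in the mitochondrial matrix and turns pyruvate from glycolysis into acetyl-CoA for the citric acid cycle. The kinases phosphorylate the alpha subunit of its first enzyme, encoded by PDHA1, and switch the complex off. The phosphatases remove these phosphates and switch it on again. PDK4 is known as a gene that fasting and glucocorticoids raise in muscle, heart and liver, which spares glucose, and the kinases are studied in cancer for their hold on glucose oxidation. The counts are of mRNA and say nothing of phosphorylation or enzyme activity.

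The labelled cell type was checked on marker genes. The basal keratin KRT5 measured 3087 ± 64.8 CPM in HCC70 DEX and 2595 ± 126 in HCC70 vehicle, but 1.43 ± 0.948 in MDA-MB-231 DEX and 0.804 ± 0.442 in MDA-MB-231 vehicle (SD, n = 3 each; CPM is the count of a gene scaled to a common library size with TMM factors). KRT14, KRT17 and the epithelial cadherin CDH1 were likewise low in MDA-MB-231, at most 2.28 CPM on average, while the mesenchymal VIM stood at 2212 ± 91.3 CPM in its vehicle libraries. EGFR was high in both lines, with group means of 328 to 429 CPM, while the basal TP63 averaged at most 1.37 CPM in any group. Luminal markers were present in HCC70 too, with ERBB2 at 249 and 194 CPM, GATA3 at 60.1 and 69.9 and FOXA1 at 58.2 and 51.1 in DEX and vehicle. In MDA-MB-231 ERBB2 averaged 99.6 and 105.5 CPM, GATA3 13.1 and 11.2 and FOXA1 0.0205 and 0.0223, in DEX and vehicle. The epithelial EPCAM averaged 16.0 and 15.3 CPM in that line. The hormone receptor gene ESR1 averaged at most 3.95 and PGR at most 0.016 CPM in any group. Of the markers of other cell types, PTPRC and CD3E of blood cells averaged at most 0.187 CPM, but CD68, known from macrophages, averaged 23.5 CPM in both HCC70 groups and 65.3 and 65.7 in MDA-MB-231 DEX and vehicle, and MYH11, of smooth muscle, 9.10 to 21.7 CPM. No marker of other cell types, and no luminal or epithelial one, passed for DEX in either line. Of 6 basal markers 2 rose with DEX in MDA-MB-231, next to 6.65% of all tested genes. Of 2 mesenchymal markers 1 rose in HCC70, next to 2.55% of all. It was ZEB1, named after its value was seen, at 0.679 CPM with DEX and 0.373 in vehicle (adjusted p = 0.00671, edgeR). Library totals ran from 106345287 to 123218973 counts, and 3 counts, the limit that a count of 0 allows, correspond to 0.023 to 0.0273 CPM per library (counting error only). In MDA-MB-231, vehicle 1 and DEX 2 stood apart from their groups in how levels ran with the GC content of genes. The level was log2 CPM less the gene's mean over the libraries of the line, so values within a line depend on each other. Spearman's rho over 13642 genes was 0.28 in DEX 2 against −0.536 and −0.521 in the other DEX libraries. It was 0.701 in vehicle 1 against 0.174 and −0.249 in the other vehicle libraries. HCC70 split by treatment, with 0.523, 0.404 and 0.384 in the DEX libraries and −0.624, −0.333 and −0.163 in the vehicle libraries. Some results that turn on vehicle 1 or DEX 2 of MDA-MB-231 are given with and without 1 or both of them. This was not done for genes named after their values were seen.

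The promoters of the 4 kinases are shown because 1 of them answered to dexamethasone far more than its paralogs. They are RefSeq windows on GRCh38.p14 from 250 bases before to 50 after an annotated start, read on the strand of the gene, 1 window per kinase (the window richest in GC where RefSeq lists several starts). Capitals mark matches, on either strand, to AGAACA (the half-site of the glucocorticoid response element), GTAAACA (bound by FOXO factors), CACGTG (the E-box), CCAAT and TATAAA.
PDK4, chr7:95596467-95596766, minus strand: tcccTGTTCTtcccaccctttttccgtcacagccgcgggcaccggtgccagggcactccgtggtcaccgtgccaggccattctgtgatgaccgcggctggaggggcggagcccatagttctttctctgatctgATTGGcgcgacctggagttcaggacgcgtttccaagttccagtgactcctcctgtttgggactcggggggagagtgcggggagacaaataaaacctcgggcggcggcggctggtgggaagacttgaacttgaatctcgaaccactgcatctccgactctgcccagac
PDK3, chrX:24465036-24465335, plus strand: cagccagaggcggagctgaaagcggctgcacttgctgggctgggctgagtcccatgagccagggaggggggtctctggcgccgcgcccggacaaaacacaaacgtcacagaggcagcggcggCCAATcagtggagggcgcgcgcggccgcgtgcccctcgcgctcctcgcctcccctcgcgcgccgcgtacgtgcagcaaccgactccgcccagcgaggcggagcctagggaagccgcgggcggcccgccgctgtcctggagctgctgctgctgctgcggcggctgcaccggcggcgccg
PDK2, chr17:50095101-50095400, plus strand: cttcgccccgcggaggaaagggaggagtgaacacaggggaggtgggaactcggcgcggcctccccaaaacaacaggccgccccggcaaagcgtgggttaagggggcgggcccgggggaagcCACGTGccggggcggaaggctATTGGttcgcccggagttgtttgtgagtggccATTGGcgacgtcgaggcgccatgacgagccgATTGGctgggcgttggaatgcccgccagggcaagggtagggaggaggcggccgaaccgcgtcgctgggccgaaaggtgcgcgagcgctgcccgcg
PDK1, chr2:172555840-172556139, plus strand: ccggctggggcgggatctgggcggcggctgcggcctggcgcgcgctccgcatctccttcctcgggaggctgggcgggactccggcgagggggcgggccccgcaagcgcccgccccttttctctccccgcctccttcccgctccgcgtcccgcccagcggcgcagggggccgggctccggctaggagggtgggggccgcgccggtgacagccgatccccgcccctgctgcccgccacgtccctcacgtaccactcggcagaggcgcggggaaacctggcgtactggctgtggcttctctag

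The PDK4 window held AGAACA once, as its reverse complement at bases 5 to 10, and 1 CCAAT on the reverse strand. Among the 10 windows at hand for 7 of the 8 genes, it was the only one with AGAACA. Of all 35116 windows of this length, 14.8% hold AGAACA. The set of windows used here held none for PDP1. The PDK3 window held 1 CCAAT, the PDK2 window 1 CACGTG and 3 CCAAT, and the PDK1 window none of the 5 motifs. CACGTG was in 7.26% of all windows, CCAAT in 34.6%, TATAAA in 11.5% and GTAAACA in 3.42%. These matches describe letters and are not evidence of binding.

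Dexamethasone raised PDK4 in both lines, and in HCC70 it was the 1 gene of the 8 whose change passed the threshold (adjusted p under 0.05, edgeR). PDK4 (ENSG00000004799.6) measured 3.56, 3.66 and 3.43 CPM in the HCC70 DEX libraries, against 0.973, 0.801 and 0.945 CPM in the HCC70 vehicle libraries. These levels are low in reads as well, with 385 to 402 counts per DEX library and 89 to 116 per vehicle library. In MDA-MB-231 it measured 112, 111.5 and 126 CPM in the DEX libraries, against 2.60, 3.31 and 3.25 CPM in the vehicle libraries. No DEX library overlapped a vehicle library in either line, and the HCC70 DEX libraries lay just above those of MDA-MB-231 in vehicle.

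The fitted rise of PDK4 was 3.91-fold in HCC70 (log2 fold change 1.97 ± 0.11, SE; adjusted p = 1.28e-07) and 38.1-fold in MDA-MB-231 (5.25 ± 0.10; adjusted p = 2.09e-13; edgeR quasi-likelihood test, Benjamini-Hochberg over all tested genes). In these bulk libraries, more expressing cells and more RNA per cell cannot be told apart. Genes were ranked among the 15385 whose average log2 CPM, computed by edgeR over all 12 libraries, was 1 or more. There the rise of PDK4 came 38th from the top in HCC70 and 3rd in MDA-MB-231. Over all 28141 tested genes it came at rank 202 in HCC70. The average includes the MDA-MB-231 DEX libraries, where PDK4 was far higher than in HCC70. The difference between both responses was tested itself. It came to −3.29 ± 0.15 in log2 (HCC70 minus MDA-MB-231, adjusted p = 9.37e-09), a rise 9.75-fold smaller in HCC70.

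In HCC70, 1 of the 8 genes passed the threshold of 0.05, next to 3.96% of all tested genes (2.55% higher, 1.4% lower). In MDA-MB-231, 4 of the 8 passed, PDK4 and PDHA1 higher and PDP1 and PDK2 lower, next to 14.6% of all tested genes (6.65% higher, 7.96% lower). For the difference of the responses 1 of 8 passed, next to 12.1% of all (6.96% higher, 5.09% lower). Over the 8 genes the median log2 fold change was −0.07 in HCC70 and 0.03 in MDA-MB-231, against −0.01 in both lines over all tested genes. DEX and vehicle libraries did not overlap for 2 of 8 genes in HCC70, where 32.4% of all genes show this, and for 3 of 8 in MDA-MB-231, where 27.3% do.

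**Figure D1:**
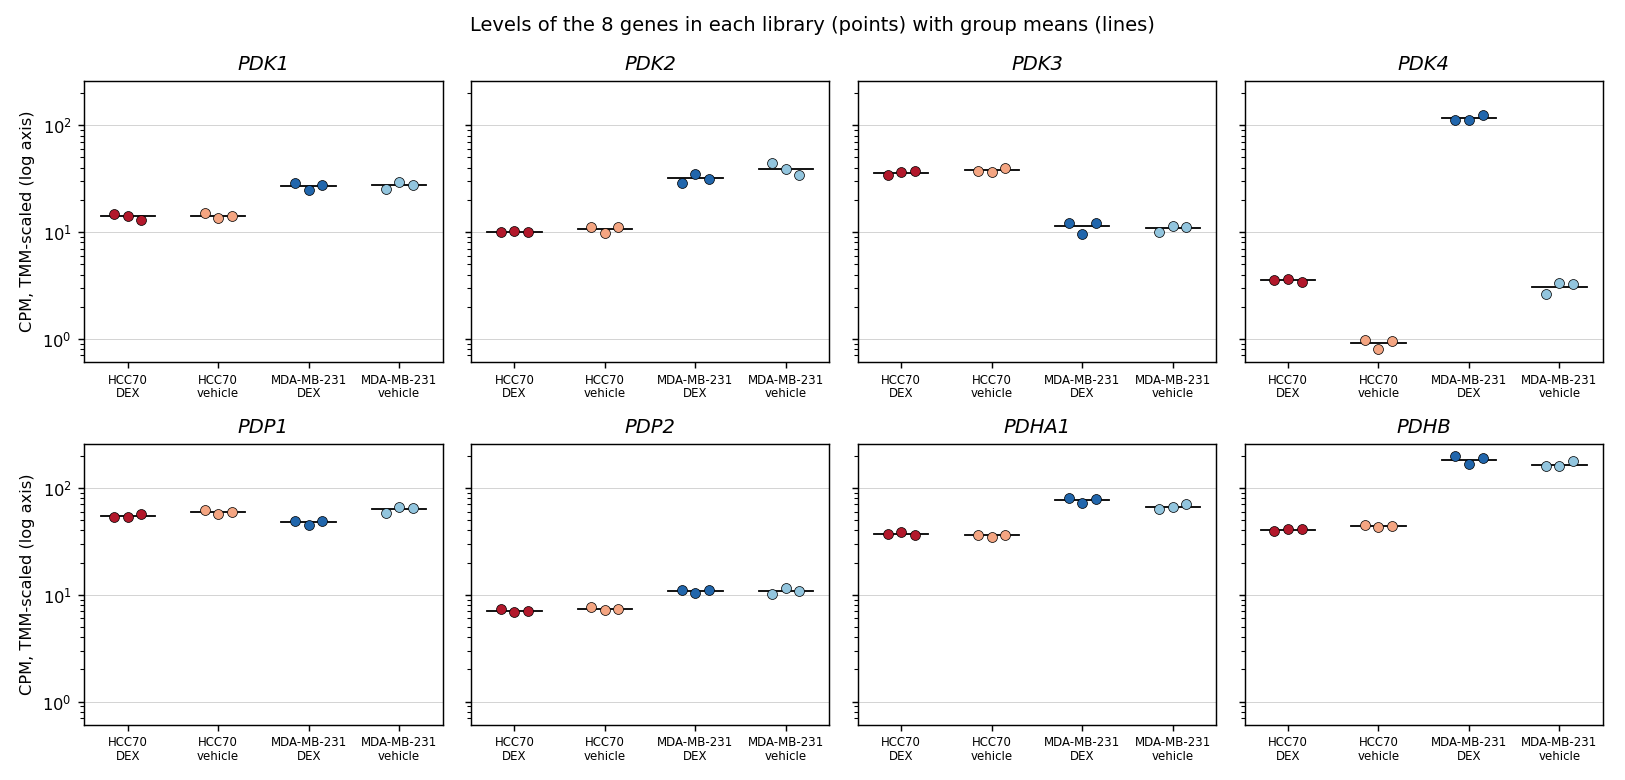
CPM of each gene on a log axis, 1 point per library and a line at the mean of each group of 3. PDK4 reaches 126 CPM in a MDA-MB-231 DEX library and is as low as 0.801 CPM in a HCC70 vehicle library, while no other gene differs by more than the 1.32-fold fall of PDP1 in MDA-MB-231 between DEX and vehicle.

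PDK2 is the kinase that most tissues express. In HCC70 it measured 9.90, 10.2 and 9.92 CPM with DEX, against 11.1, 9.88 and 11.1 CPM in vehicle, and the groups overlapped (log2 fold change −0.10 ± 0.09, adjusted p = 0.621, edgeR). In MDA-MB-231 it measured 29.1, 34.8 and 31.7 CPM with DEX, against 43.9, 39.3 and 34.0 CPM in vehicle. The highest DEX library, DEX 2, lay just above the lowest vehicle library, and the fall of 0.30 ± 0.09 in log2 passed narrowly (adjusted p = 0.0426, edgeR).

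The call on PDK2 in MDA-MB-231 did not hold across settings. After an offset that removes trends with GC content and length, PDK2 (59.8% GC) stood at −0.04 in MDA-MB-231 (adjusted p = 0.689) and at −0.28 in HCC70, where it then passed (adjusted p = 0.00991). In HCC70 it passed in this 1 setting of 24, and not with the offset plus replicate numbers as a block. Fold changes of all genes ran with GC content, with Spearman's rho of 0.503 in HCC70 and −0.448 in MDA-MB-231 across 14596 genes, which are not independent replicates. The call also ended without DEX 1 (adjusted p = 0.182), DEX 3 (0.124), vehicle 1 (0.162) or vehicle 2 (0.0996) of MDA-MB-231, and, in the fit that all 12 libraries share, without any HCC70 DEX library (0.0611 to 0.062), HCC70 vehicle 1 (0.0571) or vehicle 3 (0.0538). Without both MDA-MB-231 vehicle 1 and DEX 2 it was −0.25 and passed (0.0397). Exons of PDK2 share 2113 of 5481 bases with SAMD14 on the other strand, and these libraries do not record strand. SAMD14 measured 8.59, 10.4 and 9.03 CPM with DEX, against 12.7, 10.6 and 9.71 CPM in vehicle, in MDA-MB-231, so that reads of the pair cannot be told apart.

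PDK1, which hypoxia is known to raise, and PDK3 passed in neither line. PDK1 measured 14.8, 14.2 and 13.0 CPM with DEX, against 15.2, 13.7 and 14.0 CPM in vehicle, in HCC70. In MDA-MB-231 it measured 28.9, 24.7 and 27.7 CPM with DEX, against 25.5, 29.3 and 27.3 CPM in vehicle. The log2 fold changes were −0.03 (95% interval −0.20 to 0.14) and −0.01 (−0.18 to 0.15), so that changes of the size seen for PDK4 lie far outside both intervals.

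PDK3, the most abundant kinase mRNA in HCC70 by length, measured 34.4, 36.4 and 37.2 CPM with DEX, against 37.5, 36.7 and 39.4 CPM in vehicle, in that line. In MDA-MB-231 it measured 12.2, 9.62 and 12.1 CPM with DEX, against 10.1, 11.5 and 11.1 CPM in vehicle. DEX and vehicle overlapped in both lines, with log2 fold changes of −0.07 (95% interval −0.26 to 0.11) in HCC70 and 0.06 (−0.13 to 0.25) in MDA-MB-231. The sign of these PDK1 and PDK3 values was not the same under all settings.

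PDP1, the catalytic subunit of the calcium-sensitive phosphatase, fell in MDA-MB-231. It measured 49.5, 45.3 and 49.3 CPM with DEX, against 58.0, 66.4 and 65.3 CPM in vehicle, with all DEX libraries below all vehicle libraries. The fitted value fell by 0.40 ± 0.07 in log2, 1.32-fold lower (adjusted p = 0.000906, edgeR), and it passed under each of 24 alternative settings. In HCC70 it measured 53.0, 54.0 and 57.6 CPM with DEX, against 61.7, 56.9 and 59.4 CPM in vehicle, and did not pass (−0.11 ± 0.07, adjusted p = 0.381). The difference between the lines was 0.28 ± 0.09 (adjusted p = 0.0616), short of the threshold. It passed in 5 of 23 settings, among them without MDA-MB-231 vehicle 1 (0.33, adjusted p = 0.027) and without both vehicle 1 and DEX 2 (0.28, adjusted p = 0.0131). Over the 23 settings the difference ran from 0.17 to 0.44, and its adjusted p from 7.31e-05 to 0.341, so the call depends on the setting.

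PDP2, the other phosphatase, whose activity insulin is known to favour in rat tissues, was lower in reads and passed in neither line. It measured 7.36, 6.90 and 7.09 CPM with DEX, against 7.67, 7.15 and 7.39 CPM in vehicle, in HCC70. In MDA-MB-231 it measured 11, 10.5 and 11.2 CPM with DEX, against 10.1, 11.6 and 10.8 CPM in vehicle. The intervals of the log2 fold change ran from −0.22 to 0.10 in HCC70 and from −0.15 to 0.16 in MDA-MB-231.

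PDHA1, the subunit that carries the phosphorylated serines, was slightly higher with DEX in MDA-MB-231. It measured 80.9, 71.9 and 79.3 CPM with DEX, against 63.0, 65.8 and 70.7 CPM in vehicle, and the groups did not overlap. The fitted rise was 1.16-fold (log2 fold change 0.22 ± 0.06, adjusted p = 0.0303, edgeR). The call ended without DEX 1 (adjusted p = 0.128), DEX 3 (0.116), vehicle 1 (0.0879) or vehicle 2 (0.0834) of that line, and when that line was fitted alone (0.11). It held without both vehicle 1 and DEX 2 (0.25, adjusted p = 0.00506). Exons of PDHA1 share 956 bases with MAP3K15 on the other strand, which measured 10.1, 8.65 and 10.2 CPM with DEX, against 7.79, 8.40 and 9.30 CPM in vehicle, and did not pass (adjusted p = 0.222). In HCC70, PDHA1 measured 36.7, 38.4 and 36.2 CPM with DEX, against 36.6, 35.0 and 36.3 CPM in vehicle (0.05 ± 0.06, adjusted p = 0.736).

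PDHB, the beta subunit of the same enzyme, passed in neither line, though its values leaned in opposite ways. In HCC70 it measured 39.5, 41.6 and 40.9 CPM with DEX, against 45.4, 43.5 and 44.2 CPM in vehicle, with no overlap but a log2 fold change of only −0.13 ± 0.07 (adjusted p = 0.346, edgeR). In MDA-MB-231 it measured 196.9, 167.5 and 188.6 CPM with DEX, against 160.1, 159 and 177.9 CPM in vehicle (0.15 ± 0.07, adjusted p = 0.144), but it passed without DEX 2 (0.25, adjusted p = 0.0183) and without both vehicle 1 and DEX 2 (0.21, adjusted p = 0.0207). The difference between the lines was −0.28 ± 0.10 (adjusted p = 0.0714), and it passed in 6 of 23 settings, among them without MDA-MB-231 DEX 2 (−0.37, adjusted p = 0.0115), without vehicle 3 (−0.33, adjusted p = 0.0259) and without both vehicle 1 and DEX 2 (−0.34, adjusted p = 0.00606).

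**Figure D2:**
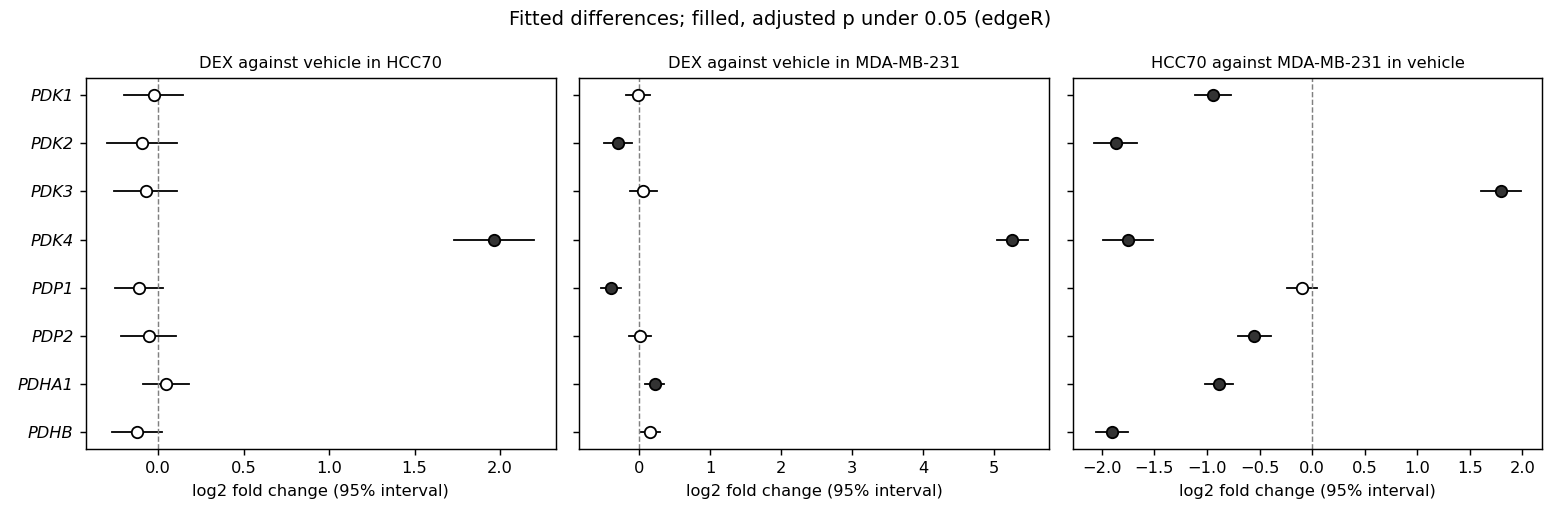
Fitted log2 fold change of each gene with its 95% interval, filled where the adjusted p was under 0.05 (edgeR), for DEX against vehicle in HCC70, DEX against vehicle in MDA-MB-231, and HCC70 against MDA-MB-231 in vehicle. PDK4 stands alone at 1.97 and 5.25 in the DEX panels, while between the lines in vehicle 6 filled points lie below 0 and PDK3 lies at 1.80. The x axes differ between panels.

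**Figure D3:**
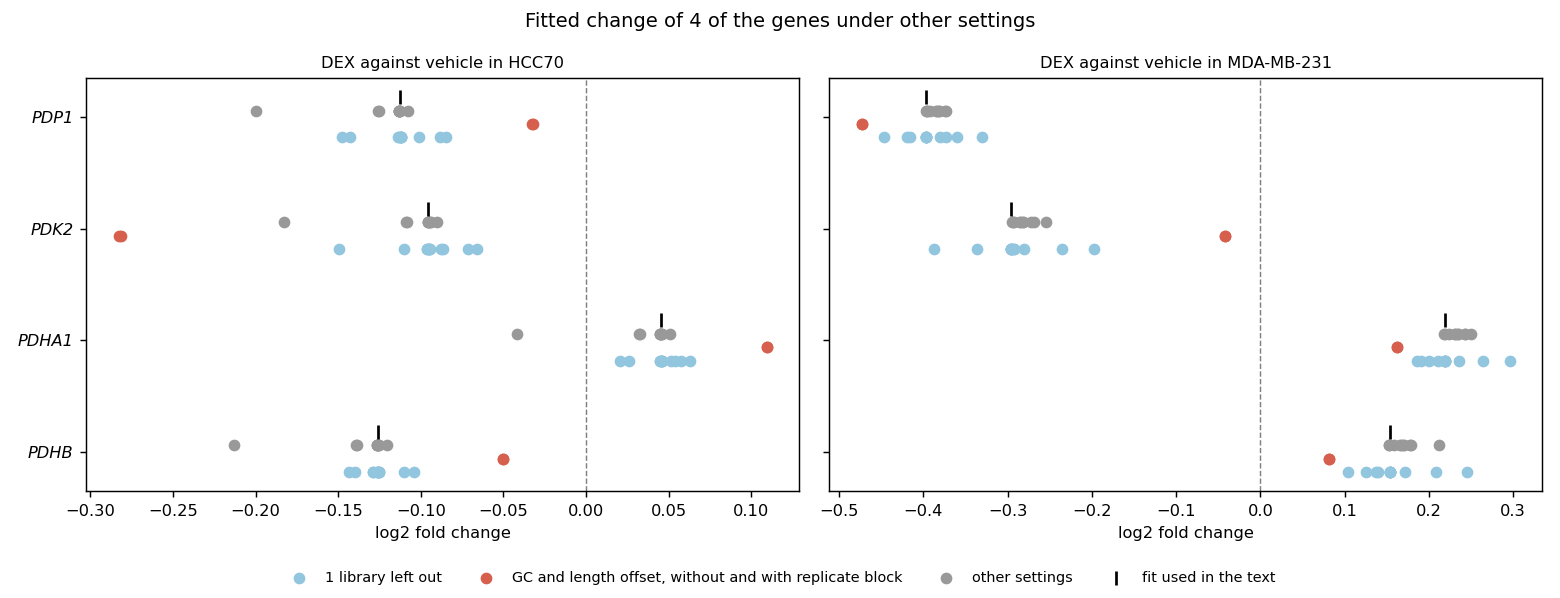
Fitted log2 fold changes of PDP1, PDK2, PDHA1 and PDHB for DEX against vehicle, with a bar for the value in the text and a point for each alternative setting. In MDA-MB-231 PDP1 keeps between −0.47 and −0.33, whereas PDK2 moves to −0.04 once trends with GC content and length are removed. The x axes differ between panels.

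In vehicle the lines differed in 7 of the 8 genes, but 79.2% of all tested genes differed as well (39.2% higher and 40% lower in HCC70), and libraries of the lines did not overlap for 7 of the 8 genes, next to 80.3% of all. The share among the 8 genes is close to that background. PDK3 was the 1 gene higher in HCC70, at 37.9 ± 1.42 CPM against 10.9 ± 0.729 CPM in MDA-MB-231 (3.48-fold; SD, n = 3 each; adjusted p = 1.3e-10, edgeR). PDHB measured 44.4 ± 0.955 CPM in HCC70 and 165.7 ± 10.6 in MDA-MB-231 (3.73-fold lower in HCC70, adjusted p = 5.36e-12). PDK2 was lower by nearly as much (3.65-fold), and by more than PDHB with the GC and length offset (−2.24 in log2 against −1.87). PDK4 was 3.36-fold lower.

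PDK1, at 14.3 ± 0.786 CPM in HCC70 and 27.4 ± 1.87 in MDA-MB-231, was 1.92-fold lower in HCC70. PDHA1 was 1.85-fold lower and PDP2 1.46-fold lower (adjusted p = 7.71e-06 or less for each gene that passed, edgeR). PDP1 was the 1 gene for which no difference was shown, with 59.3 ± 2.44 CPM in HCC70 and 63.3 ± 4.55 in MDA-MB-231 (log2 fold change −0.09, 95% interval −0.23 to 0.05, adjusted p = 0.208), though it was −0.17 and passed without MDA-MB-231 vehicle 1 (adjusted p = 0.0243). PDK2 and SAMD14 were both lower in HCC70, and their reads are not separable there either. For PDK1, the overlapping antisense gene AC093818.1 had counts that came to 21.8% to 24% of those of PDK1 in HCC70 libraries and to 63.5% to 79.4% in MDA-MB-231 libraries, over a shared stretch of 445 bases.

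Levels of different genes are compared per kilobase of exon (GENCODE exons on GRCh38; CPM per kb). On that scale the 4 kinases together stood at 10.8 ± 0.252 CPM per kb in HCC70 DEX and 10.8 ± 0.424 in HCC70 vehicle, and at 35.7 ± 1.90 in MDA-MB-231 DEX and 11.9 ± 0.728 in MDA-MB-231 vehicle (SD, n = 3 each). The phosphatases together stood at 10.6 ± 0.417 in HCC70 DEX and 11.5 ± 0.465 in HCC70 vehicle, and at 9.88 ± 0.467 in MDA-MB-231 DEX and 12.6 ± 0.892 in MDA-MB-231 vehicle. In MDA-MB-231 with DEX every library had 34.5 to 37.9 CPM per kb of kinase and 9.34 to 10.2 of phosphatase. Both the sums and their ratio depend on the length assigned. With the longest RefSeq transcript, a choice made after the data were seen, the kinases summed to 27.3 CPM per kb in HCC70 DEX, 27.9 in HCC70 vehicle, 56.8 in MDA-MB-231 DEX and 27.0 in MDA-MB-231 vehicle, which is 2.01, 1.90, 4.52 and 1.69 times the phosphatase sum of the same group. On both lengths the ratio of kinase to phosphatase mRNA was largest in MDA-MB-231 with DEX. These sums are descriptions and were not tested.

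The make-up of the kinase mRNA differed between the lines and between treatments, with the larger shift under DEX in MDA-MB-231. Of the summed kinase level in MDA-MB-231, PDK4 took 72.2 ± 1.07% with DEX and 5.74 ± 0.963% in vehicle, and PDK2 took 16.3 ± 1.73% with DEX and 60.1 ± 4.41% in vehicle (SD, n = 3 each). In HCC70, PDK3 took 67.2 ± 1.3% with DEX and 71.1 ± 1.01% in vehicle, and PDK4 took 7.26 ± 0.282% with DEX and 1.86 ± 0.134% in vehicle. The share depends on the length assigned to each gene, above all for PDK1, whose exons add up to 14883 bases but whose longest RefSeq transcript has 2990. With the longest RefSeq transcript, a choice made after the data were seen, PDK4 took 57.3 ± 1.24% with DEX and 3.16 ± 0.446% in vehicle in MDA-MB-231, PDK2 16.3% and 42.0%, and PDK1 16.0% and 33.9%. In HCC70 the same length gave PDK4 3.63% with DEX and 0.909% in vehicle, PDK1 17.1% in both groups, and PDK3 68.6% with DEX and 70.8% in vehicle.

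**Figure D4:**
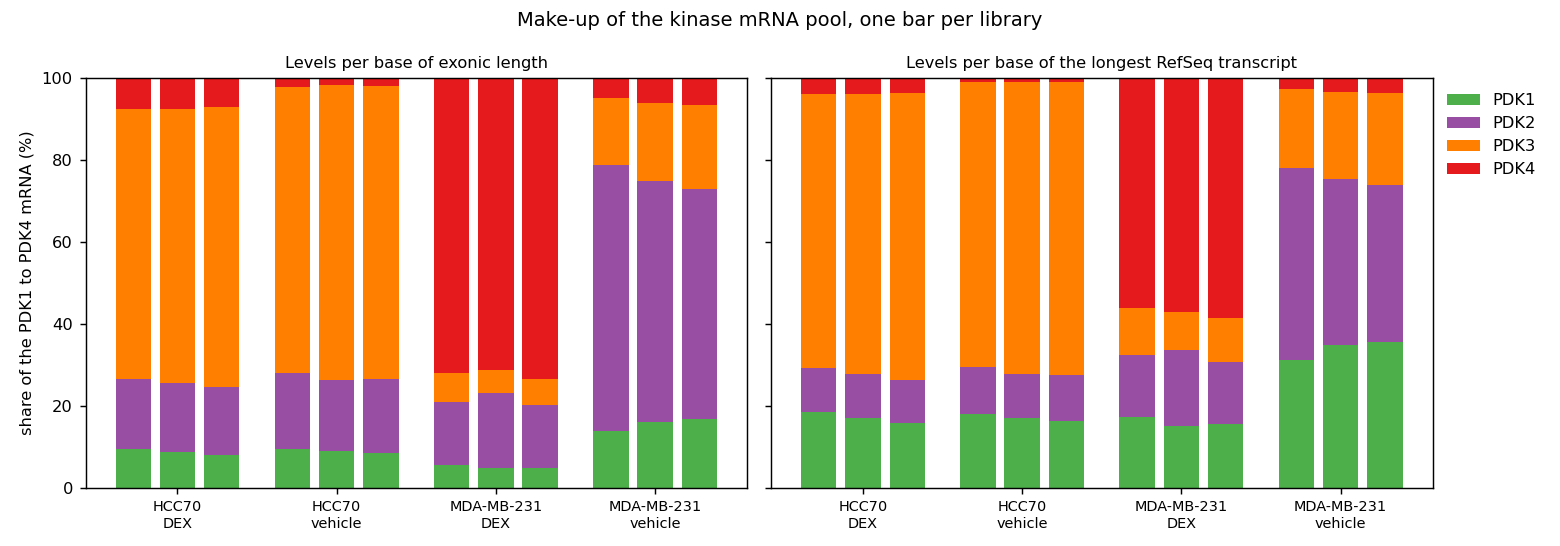
Share of PDK1, PDK2, PDK3 and PDK4 in their summed level, in percent, 1 bar per library, with levels per base of all exons (left) or of the longest RefSeq transcript (right). PDK3 fills most of each HCC70 bar, while PDK4 fills 71.3% to 73.4% of the MDA-MB-231 DEX bars on the left and 4.67% to 6.53% of the vehicle bars.

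Genes around the complex were read from lists that had been set with earlier results in view. Their counts stand against 2.55% of all tested genes higher and 1.4% lower in HCC70, and 6.65% higher and 7.96% lower in MDA-MB-231. Of 8 genes for the rest of the complex and for its lipoyl cofactor, 7 could be tested (the testis form PDHA2 had no count in any library). In HCC70 0 of 7 rose and 1 fell, LIPT1, which transfers lipoyl groups, at 0.871 ± 0.0802 CPM with DEX and 1.29 ± 0.21 in vehicle (log2 fold change −0.56 ± 0.15, adjusted p = 0.049, edgeR). That call rested on single libraries: it ended without any HCC70 DEX library, HCC70 vehicle 1 or 2, MDA-MB-231 DEX 1 or 3, or MDA-MB-231 vehicle 2 (adjusted p = 0.0558 to 0.203). Exons of LIPT1 also share 262 bases with MITD1 on the other strand. In MDA-MB-231 0 of 7 passed; DLD, the shared dehydrogenase subunit, stood at 0.12 in log2 and DLAT, the core acetyltransferase, at 0.06. The list medians were −0.08 in HCC70 and 0.04 in MDA-MB-231.

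Of 14 genes of pyruvate supply and use, 0 passed in HCC70, where PKM, the pyruvate kinase, stood at 0.05 and LDHA, which makes lactate, at 0.07 in log2. In MDA-MB-231 1 fell and 0 rose. PKM measured 2213 ± 28.4 CPM with DEX and 2569 ± 220 in vehicle (−0.22 ± 0.06, adjusted p = 0.0345, edgeR), a call that ended without any MDA-MB-231 DEX library, vehicle 1 or vehicle 2 of that line, HCC70 DEX 1 or 3, or HCC70 vehicle 2 (adjusted p = 0.0524 to 0.131). The list medians were 0.03 in HCC70 and 0.11 in MDA-MB-231. Of 7 genes of the related complexes for other ketoacids, 0 passed in either line, with medians of −0.01 and 0.07. OGDH, the 2-oxoglutarate dehydrogenase, stood at −0.03 in HCC70 and 0.12 in MDA-MB-231, and BCKDK, the kinase of the branched-chain complex, at 0.06 and −0.05. In MDA-MB-231 OGDH passed in 2 of 24 alternative settings, over which it ran from 0.04 to 0.26. BCKDK passed there in 1 of 24 and ran from −0.11 to 0.20.

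Thiamine diphosphate is the cofactor of the first enzyme, and of its supply genes 1 is reported. SLC19A2, which brings thiamine into the cell, measured 35.9, 35.3 and 35.7 CPM with DEX, against 15.8, 17.5 and 15.9 CPM in vehicle, in MDA-MB-231, a rise of 2.18-fold with no overlap (log2 fold change 1.12 ± 0.06, adjusted p = 1.49e-08, edgeR). In HCC70 it measured 13.1, 13.6 and 13.7 CPM with DEX, against 11.7, 11 and 11.9 CPM in vehicle, and missed the threshold (0.23 ± 0.06, adjusted p = 0.0594), though it passed in 7 of 24 alternatives, among them the GC and length offset (0.32, adjusted p = 0.00401), HCC70 fitted alone (0.0174), the fit without MDA-MB-231 vehicle 1 (0.0394) and DESeq2's Wald test (0.0353).

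Of 10 transcription factors known to act on kinase genes, 2 rose and 0 fell in HCC70 (next to 2.55% and 1.4% of all tested genes), and 4 rose and 2 fell in MDA-MB-231 (next to 6.65% and 7.96%). FOXO1, which drives PDK4 in fasting muscle and liver, measured 14.6, 15.1 and 15.4 CPM with DEX, against 3.70, 4.12 and 4.58 CPM in vehicle, in MDA-MB-231 (3.64-fold, log2 fold change 1.86 ± 0.08, adjusted p = 1.01e-09, edgeR). In HCC70 it stood at 31.5 ± 0.91 CPM with DEX and 28.6 ± 1.4 in vehicle (0.14, adjusted p = 0.326). PPARGC1A, the coactivator of mitochondrial genes, rose in both lines, to 1.97 ± 0.283 CPM with DEX against 1.32 ± 0.069 in vehicle in HCC70 (0.57 ± 0.13, adjusted p = 0.0202), and to 4.97 ± 0.39 with DEX against 2.38 ± 0.207 in vehicle in MDA-MB-231 (1.06 ± 0.12, adjusted p = 2.1e-05). The HCC70 call ended without DEX 3 (0.104), vehicle 1 (0.0578), vehicle 2 (0.083) or vehicle 3 (0.071) of that line.

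FOXO3, a relative of FOXO1, rose 1.38-fold in HCC70 (adjusted p = 0.00803, but 0.0564 without HCC70 vehicle 2) and 1.48-fold in MDA-MB-231 (adjusted p = 0.000534, edgeR). PPARG, the fatty acid receptor of fat cells, rose 1.83-fold in MDA-MB-231, at 47.6 ± 3.88 CPM with DEX and 26 ± 1.02 in vehicle (adjusted p = 1.02e-05), and stood at −0.09 in log2 in HCC70. The falls in MDA-MB-231 were PPARD, a related receptor (1.43-fold lower, adjusted p = 0.00234), and NR3C1, the glucocorticoid receptor itself (1.41-fold lower, adjusted p = 0.000112), both named after their values were seen. Neither was followed under the alternative settings. GC content is 59.0% for PPARD and 39.1% for NR3C1, and whether it bears on these falls was not tested. The list medians were 0.09 in HCC70 and 0.03 in MDA-MB-231.

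**Figure D5:**
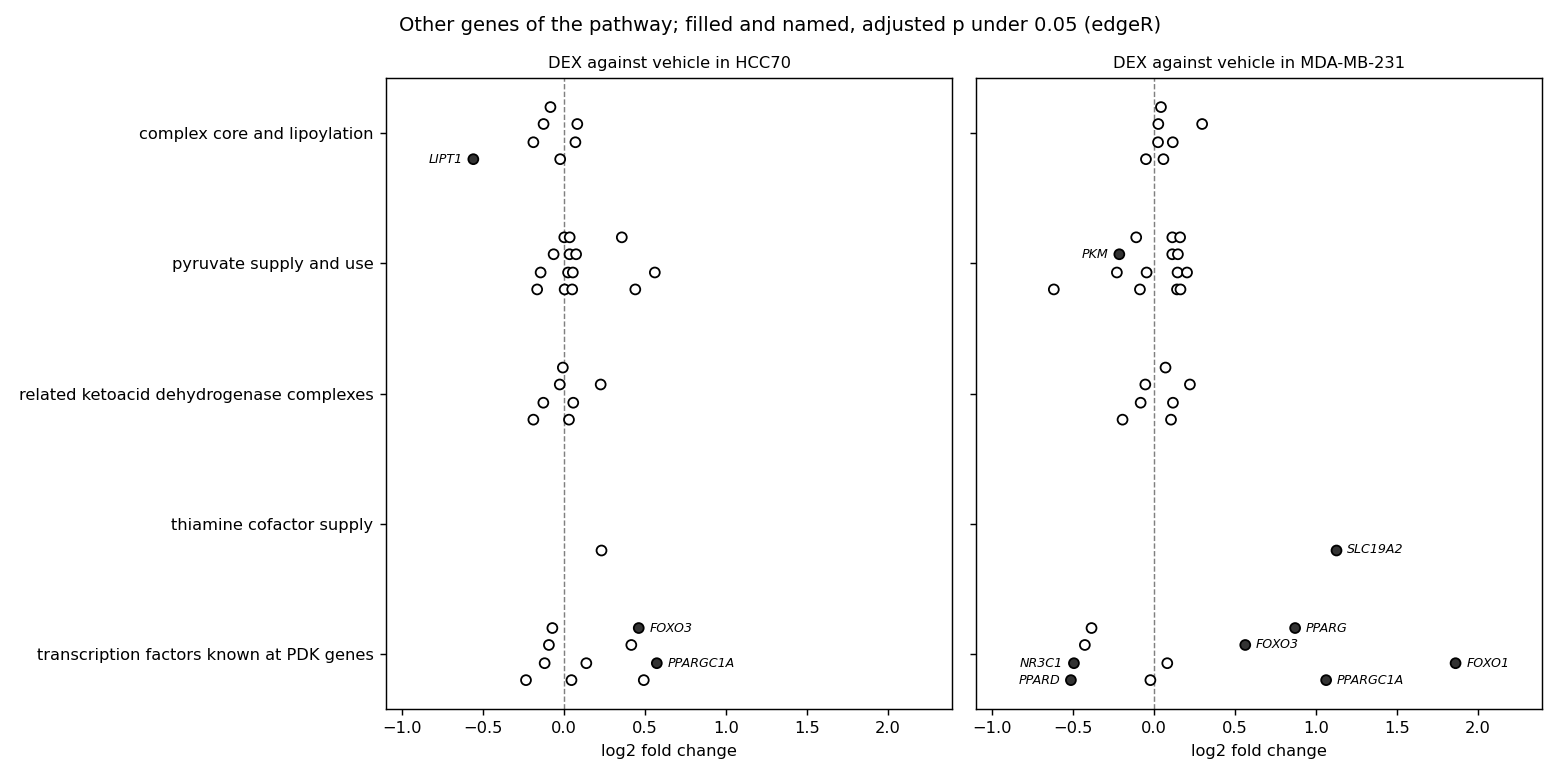
Log2 fold change of DEX against vehicle for each reported gene of the 5 lists, in HCC70 (left) and MDA-MB-231 (right), filled and named where the adjusted p was under 0.05 (edgeR). LIPT1, FOXO3 and PPARGC1A are filled in HCC70, and the points farthest to the right in MDA-MB-231 are FOXO1 at 1.86 and SLC19A2 at 1.12.

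The genes whose levels ran most like PDK4 were found by Pearson's r of log2 CPM over the 12 libraries, among 14353 genes. All 12 libraries fall into 4 groups, so r mainly follows the order of the group means, and it is given as a description. Among the 5 most similar were BIRC3, an inhibitor of apoptosis (r = 0.986), the metallothionein MT2A (0.984), SLC19A2 (0.979) and CDKN1A, the cell cycle inhibitor p21 (0.978). BIRC3 measured 33.0, 33.3 and 32.5 CPM in HCC70 DEX, 8.06, 7.38 and 7.70 in HCC70 vehicle, 229, 233 and 219 in MDA-MB-231 DEX and 19.2, 22.8 and 24.1 in MDA-MB-231 vehicle. As with PDK4, MDA-MB-231 with DEX was highest and HCC70 in vehicle lowest. CDKN1A kept the same order of group means, with some overlap between the vehicle groups. For SLC19A2 and MT2A the middle groups stood the other way round, with MDA-MB-231 vehicle above HCC70 DEX.

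For 6 of the other genes, all of which differed between the lines in vehicle, the most similar genes were LEPROTL1 and CCNA2 for PDK1 (r = 0.996 and 0.995), TP73 and MGAT5B for PDK2 (0.998 each), and HIST2H2BE and SLC33A1 for PDK3 (0.998 each). For PDP2 they were MPP5 and TMTC3 (0.996 each), for PDHA1 EIF2S1 and NUDCD1 (0.998 each), and for PDHB SMAP1 and AC008038.1 (0.999 each). For PDP1, for which no difference between the lines was shown, they were SLC4A7 and LRP6 (0.978 and 0.967). None of these pairs included another of the 8 genes.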

How the data were processed

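PolyA RNA of 12 libraries was sequenced with a transposase-based, non-stranded protocol in paired-end reads of 50 bases, per the labels' protocols. The submitters' processing notes name the build hg19 and the tools bedtools, Cufflinks 1.3.0 and TopHat 1.4.1; which tool made the counts is not given in the sources used here. The deposited table holds raw read counts per gene, not scaled by the authors, for 51838 genes, 11496 of them without a count in any library. Libraries were grouped by the labels' line and treatment.

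Low genes were removed with filterByExpr in edgeR 4.0.16 (R 4.3.3; minimum count 10), leaving 28141 genes, and TMM factors were computed. All 12 libraries entered a robust quasi-likelihood fit with a mean for each group and 8 residual degrees of freedom. Two-sided tests were made for DEX against vehicle in each line, HCC70 against MDA-MB-231 in vehicle, and the difference of the responses. P-values were adjusted by Benjamini-Hochberg across the 28141 genes and called at 0.05. Depth was 106345287 to 123218973 counts per library. No 2 libraries of a group agreed within sampling noise (chi-square per degree of freedom 7.22 to 153).

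All gene choices (the 8 genes, the lists, the naming rule) were made with earlier results of these data known. The rule takes the 8 genes, up to 4 passing genes per list and contrast by size of the log2 fold change (the 2 with the highest CPM where none passed), and the 5 genes most like PDK4 and 2 most like each other gene. Alternatives were DESeq2 1.42.0 and upper-quartile factors, library size only, no or a stricter filter (5 CPM in 3 libraries), the DESeq2 Wald test, voom in limma 3.58.1, each line alone, replicate numbers as a block, an offset for GC content and length, each library left out, and other lengths for the kinase shares. GC content, length and exon overlap come from GENCODE on GRCh38, not the hg19 of the files, and 89.8% of tested genes have a value. MPC1, MPC2 and PKM were matched by gene ID, and PECAM1 was not matched. Some genes that the lists or the naming rule would include are not reported here. The scripts were tested on simulated data.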

Additional observations from a re-analysis of the deposited data

Results flagged for a closer look

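The responses of 4 named genes differed between the lines by the edgeR test of the difference itself, given as the log2 fold change in HCC70 minus that in MDA-MB-231. The value was −3.29 ± 0.15 for PDK4 (adjusted p = 9.37e-09), and over 23 alternatives it ran from −3.40 to −3.10, with all past the threshold. It was −1.73 ± 0.11 for FOXO1 (adjusted p = 1.78e-07), −0.96 ± 0.13 for PPARG (adjusted p = 0.000246) and −0.90 ± 0.09 for SLC19A2 (adjusted p = 1.44e-05), each past the threshold in all 23 alternatives. These 4 responses were lower in HCC70 than in MDA-MB-231. FOXO1, PPARG and SLC19A2 had passed for DEX in MDA-MB-231 only, and naming genes by such calls favours this direction. For this difference 6.96% of all tested genes passed higher and 5.09% lower. In the lists the difference also passed the other way for 3 genes, named here after their values were seen. It was 0.88 ± 0.20 for ESRRA, a nuclear receptor that acts on mitochondrial genes (adjusted p = 0.0182), 0.38 ± 0.09 for NR3C1 (adjusted p = 0.0195) and 0.47 ± 0.14 for SLC16A7, a carrier of pyruvate and lactate (adjusted p = 0.0435). These 3 genes were not followed under the alternative settings, so whether their calls hold is not known. Over 14596 genes the difference ran with GC content (Spearman's rho 0.538). GC content is 63.2% for ESRRA, 39.1% for NR3C1 and 33.3% for SLC16A7. No explanation was tested.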

How the results depend on the processing

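The calls on PDK4 in both lines and on PDP1 in MDA-MB-231 held under each of 24 alternatives, and PDK4 ran from 1.88 to 2.07 in log2 in HCC70 and from 5.16 to 5.32 in MDA-MB-231. Of the 8 genes 1 passed in HCC70, and 2 with the GC and length offset (1 with the offset and the block). In MDA-MB-231 4 passed, against 2 with the replicate block, 2 with each line fitted alone and 2 to 5 with 1 library left out. For the difference of the responses 1 passed, against 2 with library size only, the DESeq2 Wald test or the GC and length offset (with or without the block), 3 with the filter of 5 CPM or without both MDA-MB-231 vehicle 1 and DEX 2, and 1 to 2 with 1 library left out.

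Of all tested genes 1114 passed in HCC70, against 1679 with the DESeq2 Wald test, 481 with the block, 4828 in a fit of that line alone, 1906 with the offset, 3867 without both of those libraries and 510 to 1775 with 1 library left out. In MDA-MB-231 4110 passed, against 2551 with the block, 2116 alone and 2424 to 6452 with 1 library left out. In vehicle 22294 passed, against 11980 with the filter of 5 CPM, which tests fewer genes (13796). For the difference 3391 passed, against 1480 with the block, 6206 without both libraries and 1614 to 6259 with 1 left out. With library size only, 42.0% of the HCC70 calls were higher with DEX (64.5% in the text's setting). The median of the difference, over genes with an average log2 CPM of 1 or more, then moved from −0.02 to −0.13.

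The replicate numbers gave no sign of pairing the libraries (correlations of same-numbered deviations −0.233, 0.118 and 0.0105 in HCC70 and −0.634, −0.261 and 0.33 in MDA-MB-231). DEX 2 and vehicle 1 of MDA-MB-231, which stood apart in GC content, gave 0.712. With 3 libraries a group, such correlations cannot tell whether same-numbered libraries were handled together. With the block PDK2 (adjusted p = 0.109) and PDHA1 (0.0926) no longer passed in MDA-MB-231, and PDK2 had 0.163 there alone.

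Where signs turned, the turned value was under 0.1 in size, apart from PDK2 and BCKDK. With the offset, alone and with the block, HCC70 gave 0.032 and 0.030 for PDK1, 0.0044 and 0.0049 for PDK3, −0.019 and −0.017 for PKM, and −0.122 and −0.121 for BCKDK. In MDA-MB-231 it gave −0.019 and −0.024 for PDK3, −0.035 and −0.035 for PDP2, −0.018 and −0.018 for DLAT, and 0.196 and 0.195 for BCKDK. For the difference it gave 0.083 and 0.083 for PDK1, −0.242 and −0.240 for PDK2, 0.024 and 0.029 for PDK3, and 0.018 and 0.018 for PDP2. With library size only, HCC70 gave −0.042 for PDHA1, −0.034 for PKM, −0.013 for LDHA and −0.031 for BCKDK. PDK1 in MDA-MB-231 gave 0.0094 with library size only, 0.00056 with DESeq2 factors, 0.00055 with the Wald test, 0.0091 with upper-quartile factors and 0.017 without both libraries.

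With 1 library left out, HCC70 ran from −0.067 to 0.021 for PDK1 and from −0.053 to 0.013 for OGDH. MDA-MB-231 ran from −0.063 to 0.074 for PDK1, −0.0014 to 0.189 for PDK3, −0.034 to 0.060 for PDP2, −0.0080 to 0.142 for DLAT and −0.109 to 0.021 for BCKDK. The difference for PDK1 ran from −0.102 to 0.036. The cause of these turns was not tested. Each line alone gives no comparison between lines. In all, 1117 values of named genes kept their direction and their side of the threshold, 56 lost and 26 gained the call, and 51 changed sign. Of 32 kinase shares with other lengths, 28 moved by more than 1 SD, as did all 8 group sums of kinases and phosphatases.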
